A study of Mus musculus with 4 samples.

Results

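The AP-1 transcription factor family was described in fibroblasts from mouse mammary tumours through 10 genes, taken by name from the 22456 genes of the expression table. They were the Fos genes Fos, Fosb, Fosl1 and Fosl2, the Jun genes Jun, Junb and Jund, the related gene Atf3, and the small Maf genes Maff and Mafk. The tumours had been grown in Balb/c mice from 4T1 cells, a mammary carcinoma line of that strain, and were taken 8 days after injection into the fat pad. In the GSK group (2 libraries) the 4T1 cells had been kept before injection for 5 days in 5 µM of the compound GSK269962A. In the DMSO group (2 libraries) they had been kept in DMSO, the solvent. The compound was given to the cancer cells in culture, not to the mice, as the labels describe it. The fibroblasts were what passed through magnetic columns after cells bearing CD45, CD31, CD326 or human CD2 had been held back, so the fraction was defined by depletion. Whether the 2 libraries of each group came from different animals is not stated, so the p-values reflect no more than the variation among these 4 libraries. The comparison asked how the fibroblasts of a tumour differ when its cancer cells had been pre-treated.

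AP-1 is a pair of basic leucine zipper proteins, usually a Fos protein with a Jun protein, that binds DNA as a dimer. Its best-known genes are switched on within minutes by growth factors, cytokines, mechanical stress and tissue digestion, through MAP kinases and the serum response factor, and their mRNAs and proteins are short-lived. In fibroblasts AP-1 is known for driving matrix metalloproteinase and cytokine genes. Atf3 is a stress-induced zipper protein that can pair with Jun proteins, and the small Maf proteins, which lack an activation domain, pair with each other, with Fos proteins or with the Nrf2 and Bach proteins.

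Fibroblast markers were high in all 4 libraries, and so were those of pericytes and smooth muscle, which the depletion leaves in. The 12 fibroblast markers averaged 15.66 and 15.64 in GSK libraries and 15.69 and 15.66 in DMSO libraries, on the authors' normalised log2 scale. The 8 pericyte and smooth muscle markers averaged 10.86 and 10.89 in GSK libraries and 10.58 and 10.84 in DMSO libraries. The 11 leukocyte markers averaged 3.44 to 3.50 over the 4 libraries, the 8 endothelial markers 3.67 to 3.72 and the 9 epithelial or 4T1 markers with values averaged 3.24 to 3.31. The defining genes of the depleted cells lay low in every library, with Ptprc (CD45) at 3.91 and 3.77 in GSK and 3.77 and 3.77 in DMSO, Pecam1 (CD31) at 3.30 and 3.31 in GSK and 3.31 and 3.34 in DMSO, and Epcam (CD326) at 0.32 in each. Single members were higher, up to 8.82 for Krt19. Read depth is unknown, since the values are not counts. Genes with a mean log2 value of 3.32 (a linear value of 10) or more were tested. Of these 14548 genes, 41 (0.282%) passed an adjusted p of 0.05 between the groups in limma's moderated test, and all 10 AP-1 genes were among the genes tested.

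The promoters of 4 members are shown because their genes stand for the largest difference of the family (Atf3) and for strongly expressed members with early roles (Fos, Fosb and Jun). Each is the run of 250 bases before a start of transcription in RefSeq (GRCm38.p6), on the strand of the gene. Matches to searched motifs are in capitals.
Atf3: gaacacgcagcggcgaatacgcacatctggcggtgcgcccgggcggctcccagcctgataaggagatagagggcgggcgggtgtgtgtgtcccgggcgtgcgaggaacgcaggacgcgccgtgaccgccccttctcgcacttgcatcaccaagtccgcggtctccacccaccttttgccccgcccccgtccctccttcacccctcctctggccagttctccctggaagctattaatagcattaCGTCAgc
Fos: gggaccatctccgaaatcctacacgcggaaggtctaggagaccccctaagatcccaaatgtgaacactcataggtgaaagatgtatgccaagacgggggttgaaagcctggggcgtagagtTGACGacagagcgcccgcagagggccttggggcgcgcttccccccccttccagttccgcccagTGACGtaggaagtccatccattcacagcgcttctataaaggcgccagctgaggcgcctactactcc
Fosb: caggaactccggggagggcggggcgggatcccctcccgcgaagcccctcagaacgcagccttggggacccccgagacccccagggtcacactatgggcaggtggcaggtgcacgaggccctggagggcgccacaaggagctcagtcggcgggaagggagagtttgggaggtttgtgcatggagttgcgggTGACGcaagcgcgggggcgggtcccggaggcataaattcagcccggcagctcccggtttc
Jun: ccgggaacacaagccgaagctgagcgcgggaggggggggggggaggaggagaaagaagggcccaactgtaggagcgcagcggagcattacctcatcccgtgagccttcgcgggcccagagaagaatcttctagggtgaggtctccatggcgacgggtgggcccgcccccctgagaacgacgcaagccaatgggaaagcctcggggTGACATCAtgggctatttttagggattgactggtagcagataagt
They lie at chr1:191183334-191183583 on the minus strand (Atf3), chr12:85473640-85473889 on the plus strand (Fos), chr7:19310046-19310295 on the minus strand (Fosb) and chr4:95052223-95052472 on the minus strand (Jun). The Atf3 gene as annotated begins at 191218039 on its strand, so the window shown precedes a start inside the gene. Of the Atf3 window 7 bases lie in annotated exons, and of the Fosb window 6. The letters searched, on both strands, were TGANTCA, the site named for AP-1, and TGANNTCA, the longer form that includes the cyclic AMP response element. Also searched on both strands was TGACG, the first part of that element. A match to TGACG can lie within a match to TGANNTCA, as in a window of Maff, but need not. Windows were held for 9 of the 10 members, and for Maff more than 1. A member counts if any of its windows has a match, while the shares are of single windows, so the measures are not alike. TGANTCA occurred in 6.75% of the 32851 windows of 250 bases before a start and in the windows of 0 of these 9 members. TGANNTCA occurred in 11.9% of all windows and in those of 3 members, Jun, Jund and Maff, in Jun as TGACATCA from 45 to 38 bases before the start. TGACG on either strand occurred in 17.8% of all windows and in those of 6 members, with 2 copies in Fos (starting 129 and 66 bases before the start), and 1 copy each in Fosb, 60 bases before it, and Atf3, within 7 bases of it. A match describes letters and says nothing of binding.

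Every AP-1 gene had a lower mean in fibroblasts from GSK tumours than in those from DMSO tumours, by 0.13 to 0.61 (log2). With the group alone in the model, none of the 10 passed an adjusted p of 0.05 (limma). With the replicate number of the libraries as a block, 5 of the 10 passed, all lower in GSK (limma adjusted p from 1.4e-04 to 0.0427). Whether libraries of the same number share a litter or day is not stated. The median difference was -0.23, against -0.0007 over all 14548 genes tested. In 9 of the 10 both GSK libraries lay below both DMSO libraries, an arrangement that 24.5% of all tested genes showed, and in 0 both lay above, against 24.1%. At an unadjusted limma p under 0.05, 8 of the 10 were lower and 0 higher, while 16.0% of all tested genes passed it, 8.13% lower and 7.88% higher in GSK. The members share libraries and respond to the same signals, so these counts are not independent of each other. In a bulk sample fewer cells of a type and less RNA per cell cannot be told apart.

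**Figure D1:**
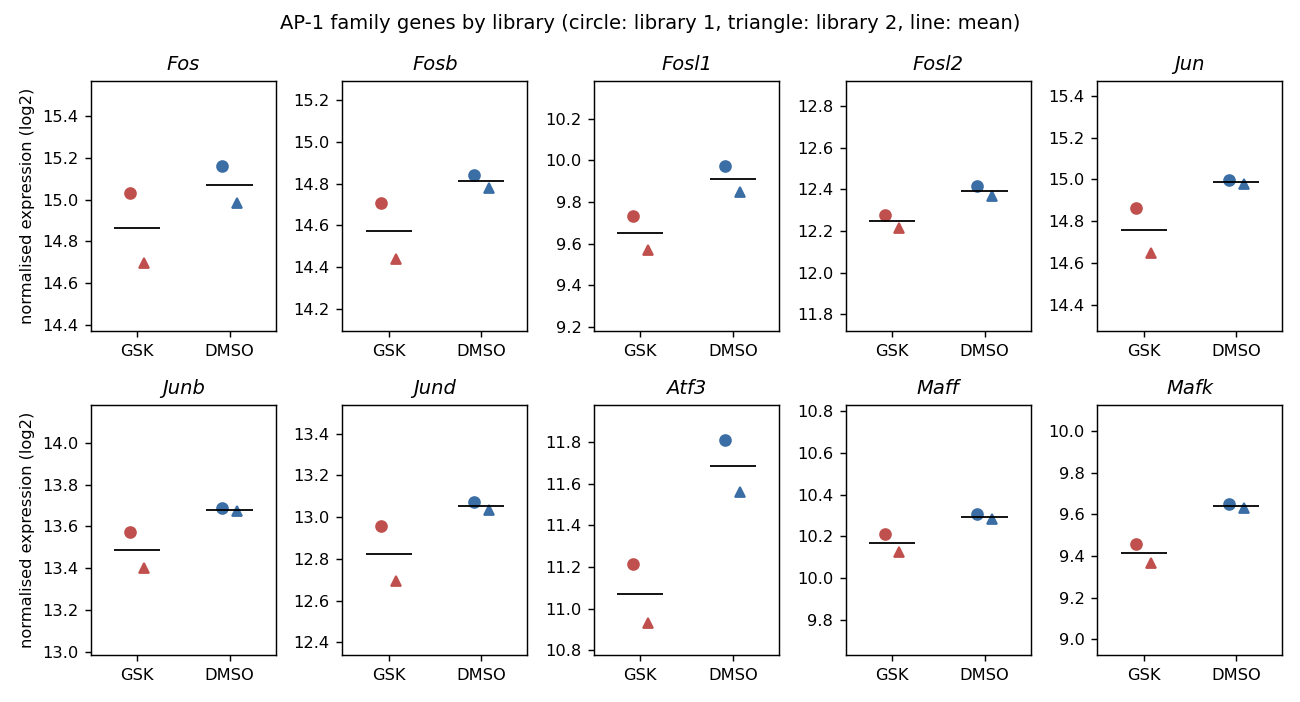
Normalised expression (log2, vertical axis, the same span of 1.2 in each panel) of the 10 AP-1 genes in the GSK and DMSO libraries, with circles for library 1, triangles for library 2 and a line at the mean of 2. Both GSK points lie below both DMSO points in 9 panels, and in the Fos panel the groups overlap.

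Fos (ENSMUSG00000021250, GRCm38 chromosome 12, 85473890 to 85477273), the founding member, whose protein pairs with Jun, had 15.03 and 14.70 in GSK libraries, against 15.16 and 14.98 in DMSO libraries. It was the only member whose groups overlapped, since GSK library 1 was above DMSO library 2. The means were 14.87 ± 0.24 in GSK and 15.07 ± 0.12 in DMSO (SD, n = 2 each), a difference of -0.21 ± 0.13 (SE, limma adjusted p = 0.468) with a 95% interval of -0.51 to 0.10. Fosb (chromosome 7, 19302696 to 19310051), which encodes a similar protein induced alongside Fos, had 14.71 and 14.44 in GSK libraries, against 14.84 and 14.78 in DMSO libraries. The groups did not overlap, but the GSK libraries lay further from each other than GSK library 1 lay from either DMSO library. Its difference was -0.24 ± 0.10 (limma adjusted p = 0.321), with an interval of -0.48 to 0.01.

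The Fos-related genes Fosl1 and Fosl2 encode Fra-1 and Fra-2, which lack the strong activation domains of Fos. Fosl1 (chromosome 19, 5447547 to 5455946) had 9.73 and 9.57 in GSK libraries, against 9.97 and 9.85 in DMSO libraries. The groups were apart by 0.12, less than the 0.16 between the GSK libraries. Its difference was -0.26 ± 0.07 (limma adjusted p = 0.157), the largest after Atf3. Fosl2 (chromosome 5, 32135801 to 32157842) had 12.28 and 12.22 in GSK libraries, against 12.42 and 12.37 in DMSO libraries. Both groups were tight, and the difference was -0.15 ± 0.05 (limma adjusted p = 0.223).

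Fosl1 needs care, because 1163 of its 2033 exon bases (57.2%) are also exon of Ccdc85b, a protein-coding gene on the other strand, and whether the counting used strand is not given in the sources used here. Ccdc85b had 7.94 and 7.98 in GSK libraries, against 7.89 and 7.93 in DMSO libraries, a difference of 0.05 ± 0.05 (limma adjusted p = 0.674). The difference of Fosl1 was thus not shared by the gene that overlaps it. Jund shares 877 of 1668 exon bases with the antisense gene Gm11175, which was not analysed here, and Jun, Junb and Mafk share 169 to 232 bases with a gene on the other strand. No other gene matched a member transcript over at least 200 bases at 98% identity beyond these overlapping genes.

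The Jun proteins can pair with themselves, with Fos proteins or with Atf3, and differ in strength, Junb and Jund being weaker activators than Jun in many settings. Jun (chromosome 4, 95049034 to 95052222) had 14.86 and 14.65 in GSK libraries, against 14.999 and 14.98 in DMSO libraries. The DMSO libraries almost coincided and both GSK libraries were lower, with the means at 14.76 ± 0.15 in GSK and 14.99 ± 0.02 in DMSO (SD, n = 2 each). The difference was -0.23 ± 0.09 (limma adjusted p = 0.275), with an interval of -0.45 to -0.02. Junb (chromosome 8, 84974484 to 84978718) had 13.57 and 13.40 in GSK libraries, against 13.69 and 13.67 in DMSO libraries. Jund (chromosome 8, 70698949 to 70700616), the member usually held to be the least dependent on stimulation, had 12.96 and 12.69 in GSK libraries, against 13.07 and 13.03 in DMSO libraries. The Jun genes thus shared one pattern, a close DMSO pair above 2 GSK libraries that differed from each other by 0.17 to 0.26. Junb was at -0.19 ± 0.07 (limma adjusted p = 0.264) and Jund at -0.23 ± 0.09 (limma adjusted p = 0.286).

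Atf3 (ENSMUSG00000026628, chromosome 1, 191170296 to 191218039) had 11.21 and 10.93 in GSK libraries, against 11.81 and 11.56 in DMSO libraries. The groups were 0.35 apart, more than the 0.28 between the GSK libraries and the 0.25 between the DMSO libraries. The means were 11.07 ± 0.20 in GSK and 11.68 ± 0.18 in DMSO (SD, n = 2 each), a difference of -0.61 ± 0.11 (SE, limma adjusted p = 0.0831) with a 95% interval of -0.89 to -0.33, or 1.53-fold lower in GSK. With the replicate number as a block the limma adjusted p was 1.4e-04. With the group alone in the model Atf3 ranked 271 of 14548 by p. The adjusted p was 0.0399 without DMSO library 2, with a difference of -0.74, and 0.253 without DMSO library 1, with a difference of -0.49.

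Atf3 stood apart from its relatives in the size of the difference. Relative to the mean of the other 9 members in the same library it was at -1.32 and -1.42 in GSK, against -0.87 and -1.06 in DMSO, a difference of -0.41. Relative to Jun, a partner of its protein, it was at -3.65 and -3.72 in GSK, against -3.19 and -3.42 in DMSO. By contrast Fos relative to Jun was at 0.17 and 0.05 in GSK, against 0.16 and 0.01 in DMSO, and Jund relative to Jun was at -1.91 and -1.95 in GSK, against -1.92 and -1.94 in DMSO. The ratios of Fos and of Jund to Jun overlapped between the groups, and that of Atf3 to Jun did not. Small ratios could be apart too: Junb relative to Jun was at -1.29 and -1.25 in GSK, against -1.31 and -1.30 in DMSO, and Mafk relative to Maff at -0.75 and -0.76 in GSK, against -0.66 and -0.65 in DMSO. Atf3 was singled out here by its own values, so no test is given.

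The small Maf genes varied little between the DMSO libraries and more between the GSK libraries. Maff (chromosome 15, 79346621 to 79359076), the stress-inducible one, had 10.21 and 10.12 in GSK libraries, against 10.31 and 10.28 in DMSO libraries. Its difference of -0.13 ± 0.05 (limma adjusted p = 0.265) was the smallest of the family. Mafk (chromosome 5, 139791513 to 139802653) had 9.46 and 9.37 in GSK libraries, against 9.65 and 9.63 in DMSO libraries. The groups were 0.17 apart, against the 0.09 between the GSK libraries, and the difference was -0.23 ± 0.05 (limma adjusted p = 0.108) with an interval of -0.34 to -0.11. By p it came second in the family after Atf3.

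**Figure D2:**
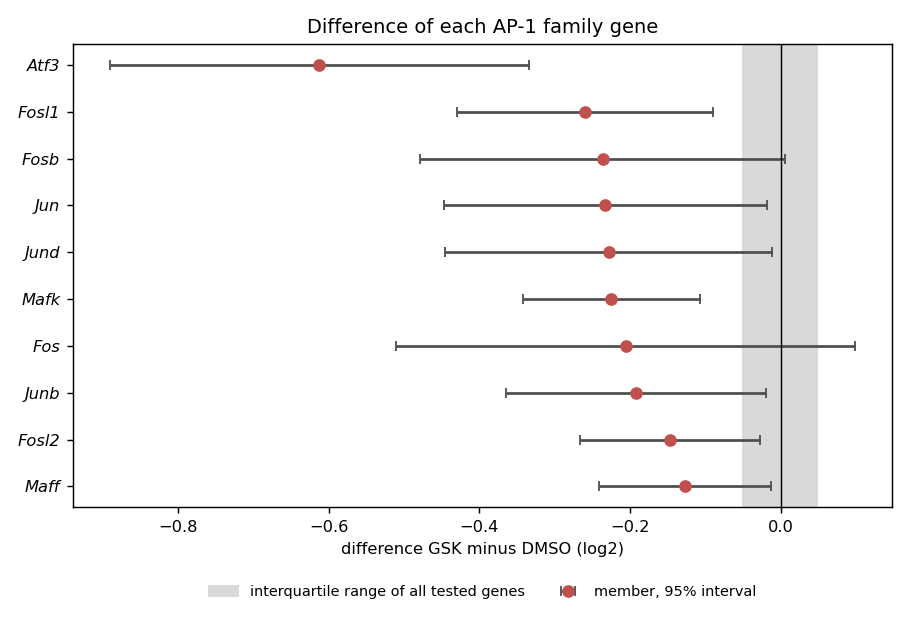
Difference GSK minus DMSO (log2, horizontal axis) of each AP-1 gene as a point with its 95% interval from limma, with the interquartile range of all tested genes, -0.05 to 0.05, in grey. Atf3 lies at -0.61 and the other 9 between -0.26 and -0.13, and the intervals of Fos and Fosb include 0.

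The libraries of a group were not alike for this family. GSK library 2 was the lowest of the 4 libraries for 10 of 10 members, against 28.3% of all tested genes, and DMSO library 1 was the highest for 10 of 10, against 28.1%. Within each group library 2 was below library 1 for every member, with a median difference of -0.19 in GSK and -0.05 in DMSO. Over all tested genes library 2 was the lower one in 50.5% of genes in GSK and 50.4% in DMSO, and replicates differed by a median of 0.05 in size in either group. For Fos, Fosb and Jund the GSK libraries thus lay further from each other than the means of the groups did. GSK library 1 was lower than DMSO library 2 for 9 members, against 49.9% of all tested genes, with a median difference of -0.10 over the 10. GSK library 2 was lower than DMSO library 1 for 10, against 50.3% of all tested genes, with a median of -0.37. The median difference of the family was -0.34 without GSK library 1 and -0.11 without GSK library 2, and -0.20 and -0.25 without DMSO library 1 and without DMSO library 2.

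**Figure D3:**
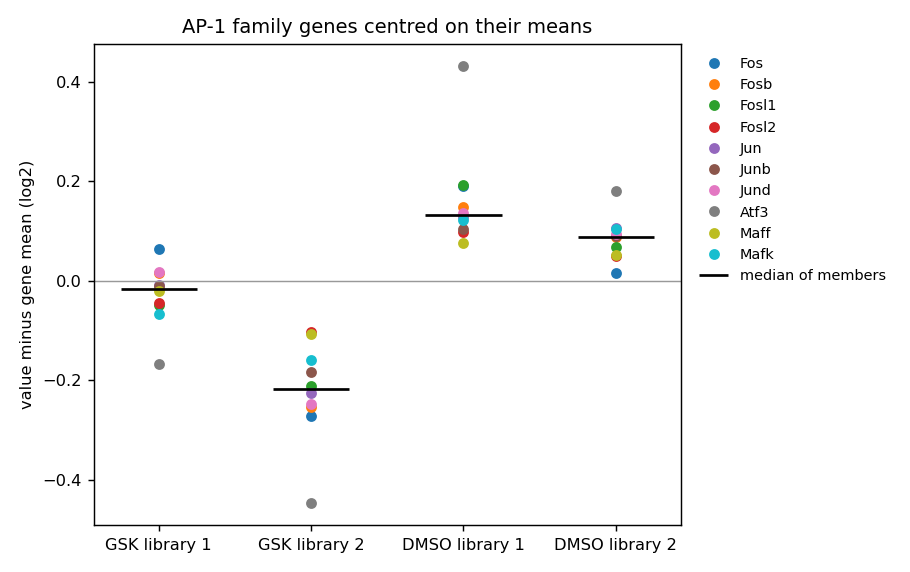
Each AP-1 gene's value minus its own mean over the 4 libraries (log2, vertical axis) in GSK libraries 1 and 2 and DMSO libraries 1 and 2, with a line at the median of the 10 genes. The medians are -0.02 and -0.22 in GSK, and 0.13 and 0.09 in DMSO.

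Levels of different genes were compared after division by the length of the union of exons, as log2 per kilobase. This takes the deposited values not to be scaled by length already, which the sources used here do not state. Without the division Fosb, at a mean of 14.69, lay above Junb at 13.58 and Jund at 12.94. Fos came first with a mean of 13.74 over the 4 libraries, followed by Jun at 13.20, Junb at 12.38, Jund at 12.20, Fosb at 12.05, Atf3 at 10.27, Fosl2 at 9.04, Maff at 8.86, Fosl1 at 8.76 and Mafk at 7.56. Fos, Jun, Junb, Jund and Fosb were above at least 98.4% of all tested genes on this scale, and Mafk above 70.5%. The ranges over the libraries overlapped between Junb and Jund, between Jund and Fosb and between Maff and Fosl1, and did not overlap between other neighbours. Within each library, though, Junb was above Jund and Jund above Fosb in 4 of 4. The place of Fosb depends on the length used: with the longest coding transcript it took place 3, against place 5 with the union of exons, an alternative chosen after seeing the data.

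The shares of the Fos and Jun genes in the family overlapped between the groups, and that of Atf3 did not. Of the summed length-scaled level of the 10 genes, on a linear scale, the Fos genes made up 47.9% and 46.3% in GSK libraries, against 47.5% and 45.7% in DMSO libraries. The Jun genes made up 47.8% and 49.2% in GSK libraries, against 47.2% and 49.3% in DMSO libraries. Atf3 made up 2.71% and 2.67% in GSK libraries, against 3.72% and 3.32% in DMSO libraries. The small Maf genes made up 1.57% and 1.77% in GSK libraries, against 1.55% and 1.62% in DMSO libraries, and also overlapped.

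**Figure D4:**
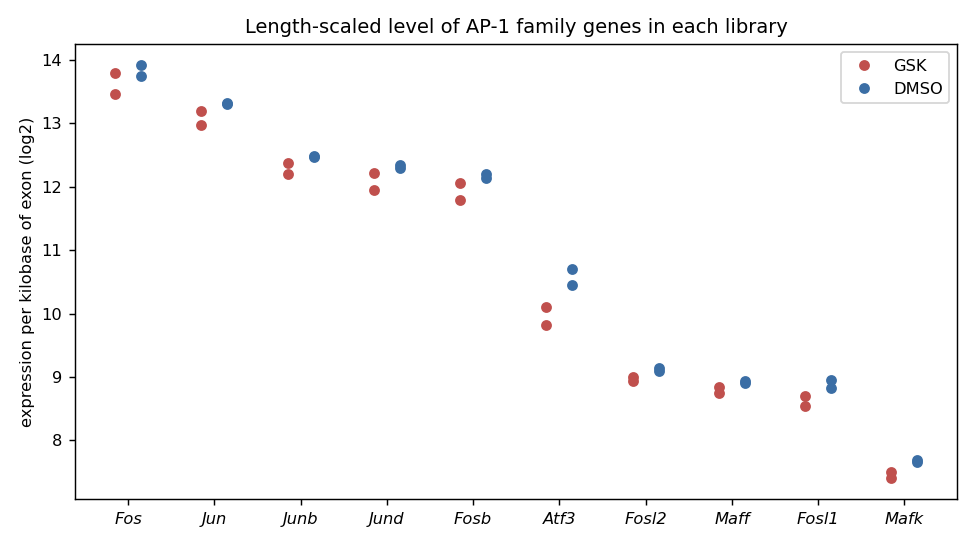
Expression per kilobase of exon (log2, vertical axis) of the AP-1 genes in order of their mean, with each GSK library in red to the left and each DMSO library in blue to the right. Fos and Jun lie highest, 5 genes lie at or above 11.80 in every library, and Atf3 lies between them and the 4 lowest genes.

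The partners of AP-1 proteins lay around 0. The list held zipper genes of the Batf, Jdp2, Atf2, large Maf, Nrf and Bach kinds, with 12 of 17 tested. None passed an adjusted p of 0.05 in either direction (limma), and the median difference was 0.00. With an unadjusted limma p under 0.05, 1 was higher and 0 lower, against 7.88% and 8.13% of all tested genes. Maf, a large Maf factor with its own activation domain, had 10.91 and 11.14 in GSK libraries, against 10.66 and 10.75 in DMSO libraries, a difference of 0.31 ± 0.08 (limma adjusted p = 0.144). Its groups did not overlap and lay the other way from those of Maff and Mafk. The other genes with the smallest p were Batf2 at 0.09, Bach2 at 0.06 and Nfe2l1, which pairs with small Maf proteins, at 0.04, and that of Nfe2l1 was at -0.0047 without GSK library 1.

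Genes that act upstream of AP-1 were tested in 22 of 23 cases. They include genes for the JNK, ERK, p38 and ERK5 kinases with their activators, and for the serum response factor with its cofactors. None passed in either direction, and the median difference was 0.03. The GSK mean was higher in 17 and lower in 5, where 50.5% of all tested genes were lower. Both GSK libraries lay above both DMSO libraries in 7 and below in 2, against 24.1% and 24.5% of all tested genes. With an unadjusted limma p under 0.05, 1 was higher and 0 lower, against 7.88% and 8.13% of all tested genes. Elk3, a ternary complex factor, which binds DNA together with the serum response factor, had 11.47 and 11.52 in GSK libraries, against 11.29 and 11.35 in DMSO libraries, a difference of 0.17 ± 0.05 (limma adjusted p = 0.156). Its relative Elk4 was at 0.10, Srf itself at 0.11 and Mapk3, the kinase ERK1, at 0.11. These are mRNA levels, and the activity of the kinases was not measured.

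Genes known as AP-1 targets moved in both directions. Of 22 tested, 2 rose and 3 fell in GSK fibroblasts, against 0.151% and 0.131% of all tested genes, with a median difference of -0.22. With an unadjusted limma p under 0.05, 5 were higher and 11 lower, against 7.88% and 8.13% of all tested genes. Both GSK libraries lay above both DMSO libraries in 6 and below in 11, against 24.1% and 24.5%. The metalloproteinase genes Mmp13 and Mmp10 rose, to 13.65 and 14.23 for Mmp13 in GSK libraries, against 11.87 and 12.33 in DMSO libraries, and to 11.93 and 11.52 for Mmp10 in GSK libraries, against 10.29 and 10.48 in DMSO libraries. The cytokine gene Lif fell to 10.85 and 11.05 in GSK libraries, against 11.89 and 11.87 in DMSO libraries. Ptgs2, the inducible prostaglandin synthase, fell to 12.43 and 12.63 in GSK libraries, against 13.45 and 13.29 in DMSO libraries, and Hmox1, haem oxygenase, to 10.51 and 10.36 in GSK libraries, against 11.09 and 11.05 in DMSO libraries. The limma adjusted p of these 5 ran from 0.0199 for Lif to 0.046 for Mmp13, and from 0.0565 to 0.0876 without DMSO library 1. With no filter all 5 lay at 0.215 to 0.222, and with a variance prior without trend 4 of them, Lif excepted, at 0.0634 to 0.0763. Mmp13 and Mmp10 lay at 0.107 and 0.0631 with a robust prior, Mmp13 and Ptgs2 at 0.0611 and 0.0638 after quantile normalisation, and Mmp13 at 0.0524 with a filter at a mean of 50. With the replicate number as a block the limma adjusted p of the 5 ran from 3.7e-06 for Mmp13 to 8.1e-04 for Ptgs2. The groups of all 5 were apart, and the rising pair lay opposite to every AP-1 gene. Several of these genes were known from earlier results on these data when the list was made, so the list is not independent support of a direction.

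Other genes of the immediate early and dissociation response, which digestion of a tissue also induces, lay on the same side as AP-1. All 23 were tested, 4 fell (0.131% of all tested genes) and 0 rose, the median difference was -0.44, and in 20 both GSK libraries lay below both DMSO libraries, against 24.5% of all tested genes. At an unadjusted limma p under 0.05, 18 were lower and 0 higher, against 8.13% and 7.88% of all tested genes. Those that fell were the heat shock genes Hspa1b at -0.72 and Hspa1a at -0.61, the early gene Ier5 at -0.44 and Nr4a3, an orphan nuclear receptor, at -0.46. The limma adjusted p ran from 0.0366 for Hspa1b to 0.0474 for Ier5 and Nr4a3. Without DMSO library 1 the 4 lay between 0.14 and 0.159, without GSK library 2 between 0.0638 and 0.091, and Nr4a3 lay at 0.0621 without GSK library 1. The 4 lay at 0.222 with no filter and at 0.0531 to 0.0763 with a variance prior without trend. Hspa1a, Ier5 and Nr4a3 lay at 0.051 to 0.0524 with a filter at a mean of 50, and Ier5 and Nr4a3 at 0.0523 and 0.0638 after quantile normalisation. With the replicate number as a block the limma adjusted p of the 4 ran from 1.99e-04 for Hspa1b to 0.00189 for Nr4a3. Hspa1a and Hspa1b are near-identical, so their reads may be divided between them, and summed they were at -0.68. The median difference of this list was larger in size than that of the AP-1 genes. The part of tissue dissociation in the AP-1 values was not tested.

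Genes for the turnover of AP-1 mRNAs and proteins were all tested, 8 of 8, and none passed. With an unadjusted limma p under 0.05, 1 was higher and 4 lower, against 7.88% and 8.13% of all tested genes. Zfp36, which encodes tristetraprolin, a protein that destabilises AU-rich mRNAs and is itself an early gene, had 14.77 and 14.41 in GSK libraries, against 15.12 and 15.02 in DMSO libraries, a difference of -0.48 ± 0.12 (limma adjusted p = 0.144). Its relative Zfp36l1 was at -0.27, and Tob1, an antiproliferative gene tied to mRNA deadenylation, at -0.25. Fbxw7, part of a ubiquitin ligase for Jun, was at 0.14 ± 0.04 (limma adjusted p = 0.193), with 8.00 and 8.01 in GSK libraries, against 7.86 and 7.86 in DMSO libraries. Its groups were apart in the direction opposite to Jun.

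**Figure D5:**
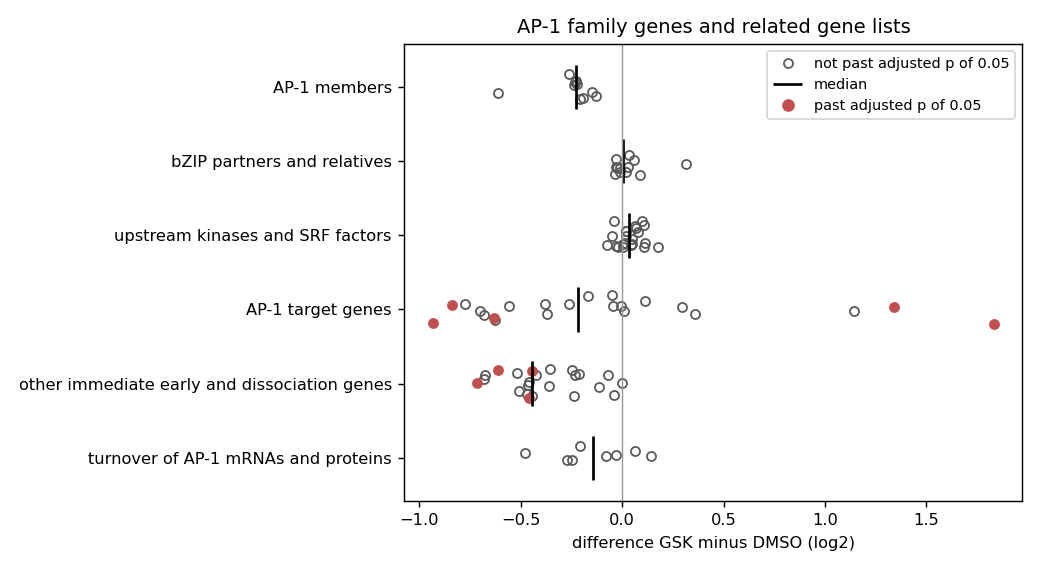
Difference GSK minus DMSO (log2, horizontal axis) of each tested gene of the AP-1 family and of the 5 related lists, filled where the limma adjusted p was under 0.05, with a line at each median and vertical scatter for legibility only. The AP-1 genes are all below 0 and unfilled, with a median of -0.23. Partners and upstream genes lie around 0, with 17 of the 22 upstream genes above it, and targets spread from -0.94 to 1.83.

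The genes whose values over the 4 libraries ran closest to those of Atf3 were sought among 11230 protein-coding genes with a mean linear value of 50 or more. Likeness was the root mean square distance between values centred on each gene's mean. Among the 5 closest were Fgf7, a growth factor made by fibroblasts, at a distance of 0.020, Ifrd1, a transcriptional coregulator, at 0.025, F3, tissue factor, which starts coagulation, at 0.027, and Mt2, a metallothionein, at 0.032. The differences of these 4 ran from -0.64 to -0.59, and none passed (limma adjusted p from 0.0654 to 0.106). Fgf7 also belongs to the list of AP-1 targets. With 4 libraries, likeness of this kind describes 4 numbers per gene. These genes were picked for values like those of Atf3, so their differences and p-values follow from that choice and add no support. Their differences ran from -0.80 to -0.70 without DMSO library 2 and from -0.50 to -0.47 without DMSO library 1. They ran from -0.78 to -0.70 without GSK library 1 and from -0.51 to -0.48 without GSK library 2.

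Summed levels of marker lists were set beside these results. The pericyte and smooth muscle markers had a summed level (log2 of the linear sum) of 14.33 and 14.33 in GSK libraries, against 13.92 and 14.20 in DMSO libraries, with both GSK libraries above both DMSO libraries in 4 of 8, against 24.1% of all tested genes, and below in 2 of 8, against 24.5%. The summed epithelial or 4T1 markers were at 9.04 and 8.85 in GSK libraries, against 9.22 and 9.16 in DMSO libraries, and rested on Krt19. Of the 4 tested in that list, both GSK libraries lay below both DMSO libraries in 3 and above in 0. These 3 were Krt19 and the low genes Krt8 and Krt18, at means of 3.59 and 4.37. The summed leukocyte markers were at 8.95 and 8.82 in GSK libraries, against 9.29 and 8.94 in DMSO libraries, and rested on Cd3e, at 8.55 and 8.40 in GSK libraries, against 8.998 and 8.55 in DMSO libraries. The summed fibroblast markers were at 21.76 and 21.85 in GSK libraries, against 21.87 and 21.86 in DMSO libraries. No marker of the 5 lists passed an adjusted p of 0.05 (limma). Of the 34 tested, 5 were higher and 4 lower at an unadjusted limma p under 0.05, against 7.88% and 8.13% of all tested genes. Among the 8 pericyte and smooth muscle markers 4 were higher and 1 lower by that measure. Among the 4 tested epithelial or 4T1 markers 0 were higher and 2 lower. The part of these cell types in the AP-1 values was not tested.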

How the data were processed

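The authors deposited normalised values on a log2 scale, 1 column per library. The log2 unit was read from the values (-1.04 to 20.58), and no transformation, annotation release or strand setting is given in the sources used here. Named in the submitters' processing notes, with no role or order, are DESeq2 1.12.4, RSEM 1.2.29 and Bowtie2, and GRCh38 and mm10 as builds. Low genes hardly vary (median range over 4 libraries 0.0178 for the 7908 genes below the filter, 0.113 for those tested). Whether the transformation shrinks the differences of low genes was not tested. Symbols and coordinates came from GENCODE M21 (GRCm38), where 22357 identifiers matched.

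Genes with a mean log2 value of 3.32 or more were tested with limma 3.58.1 in R 4.3.3 on the log2 values as deposited (no pseudocount was added), with the group alone in the model, a variance prior following the mean, two-sided p-values and Benjamini-Hochberg adjustment over all 14548 genes. SE is limma's moderated error. Transcripts were aligned with blastn 2.17.0. Named genes were the members, and of each of 5 lists the called genes and the 4 with the smallest p, with 5 genes most like the member of largest difference. Of the last, 1 is not reported here. The other genes named are defining markers, or overlap a member. Members and lists were chosen with earlier results of these data known. Of the listed genes, Nrl and Krt5 were not analysed here. Alternatives were other filters, scalings and variance priors, the replicate number as a block, and each library left out.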

Additional observations from a re-analysis of the deposited data

How the results depend on the processing

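The filters, variance priors and block leave each difference as it is. The median of the 10 AP-1 differences was -0.23 as reported and with a common median, -0.21 after quantile normalisation, and -0.34 to -0.11 with 1 library left out, where the lone library of a group is assumed to vary like the other group. The number of AP-1 genes past an adjusted p of 0.05 was 0 in the reported model, 0 to 1 with 1 library left out (Atf3, without DMSO library 2), and 0 under the other filters, scalings and variance priors. The number of all genes past the threshold was 41 as reported, 7 to 194 with 1 library left out, 1 with no filter, 23 after quantile normalisation, 126 with libraries set to a common median, 11 with a variance prior without trend and 138 with a robust prior. The causes were not tested. Both groups carry the replicate numbers 1 and 2, but nothing in the labels says that a number marks a shared litter or day. Deviations from the group means correlated at 0.43 between libraries of the same number. With the replicate number as a block, 1374 of the 14548 tested genes passed, 661 higher and 713 lower in GSK. Of the 10 AP-1 genes 5 passed, Atf3, Fosl1, Mafk, Jund and Fosl2, all lower in GSK (limma adjusted p from 1.4e-04 to 0.0427). Of 36 genes named by rule, these included, 15 that had not passed in the reported model passed with the block. Among 36 genes named by rule, Nfe2l1 alone changed sign, at -0.0047 without GSK library 1 and 0.076 without GSK library 2. With 2 libraries a group and unknown depth, small differences could not be resolved in the reported model, which holds the group alone.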
